A study of Homo sapiens with 29 samples.

Results

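Senescent fibroblasts with low SMARCA4 were compared with growing fibroblasts in 11 RNA sequencing libraries of IMR90 ER:RAS cells, out of 18 libraries in the count table and 29 samples in the labels. All 6 libraries of 4OHT_siSMARCA4 were used, and 5 of the 6 libraries of DMSO_siNT; the sixth, with siNT 4 from set 2V, was left out because it stood apart from its group. IMR90 cells are an established line of human lung fibroblasts, and the ER:RAS derivative carries a retroviral fusion of the estrogen receptor with oncogenic RAS (RASG12V) that is switched on by 4-hydroxytamoxifen (4OHT). Cells of 4OHT_siSMARCA4 received 4OHT and either of 2 siRNAs against SMARCA4, numbered 2 and 4. Cells of DMSO_siNT received the solvent and either of 2 non-targeting siRNAs, also numbered 2 and 4, and both groups were labelled day 7. The fusion was therefore present in both groups. The labels add a set name of a number and the letters V or VM, whose meaning is not stated. Treatment and knockdown changed together between the groups, so that the effects of 4OHT and of low SMARCA4 cannot be told apart within the comparison. The 6 libraries of 4OHT_siNT, senescent cells with non-targeting siRNA, entered no test and are given beside the results as levels.

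Oncogene-induced senescence is a stable arrest that follows strong RAS signalling. The arrest is held by cyclin-dependent kinase inhibitors that keep RB active and E2F targets silent, and senescent cells also remodel the nuclear lamina, enlarge their lysosomes and secrete cytokines, chemokines, proteases and growth factors, together called the senescence-associated secretory phenotype (SASP). SMARCA4, also called BRG1, is an ATPase of the SWI/SNF complexes, which slide or evict nucleosomes and so open regulatory DNA. The question was which of these features stood when SMARCA4 was low, and how far the cells were from the growing state.

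Levels are given in CPM, counts scaled to a common library size, after TMM scaling, with the 5 DMSO_siNT libraries in the order 2-1V, 2-2V, 2-2VM, 4-2VM and 4-3VM (siRNA number, then set) and the 6 4OHT_siSMARCA4 libraries as lowest, median and highest. Total counts were 11534913 to 13448183 in the 5 DMSO_siNT libraries and 11382143 to 18039313 in 4OHT_siSMARCA4. One 4OHT_siSMARCA4 library with siRNA 2 had a column name ending in 1VM, a pairing of siRNA and set that no sample title gives, and it was used as a replicate with no labelled set (2-none below). DMSO_siNT held 2 V and 3 VM libraries, and 4OHT_siSMARCA4 held 3 V and 2 VM libraries with a title and the library 2-none, so that the comparison could be repeated within V and within VM sets. Values within VM sets leave out 2-none unless it is named. The labels do not say that libraries of a group came from separate cultures, and p-values measure only the spread between these libraries, which may be technical. The 10 fibroblast markers had a summed level of 26562 to 31064 CPM in DMSO_siNT and 9762 to 13776 CPM in 4OHT_siSMARCA4. Among 10 epithelial and 10 leukocyte markers, 8 of each did not exceed 3 counts in any library, and among those at 0 were KRT5, SFTPC, NKX2-1, CD3E and MS4A1. The epithelial sum was 5.28 to 11.4 CPM in DMSO_siNT and 0.820 to 3.08 CPM in 4OHT_siSMARCA4, and the leukocyte sum 44.5 to 59.9 and 48.96 to 76.9 CPM. Of 8 endothelial markers, ERG did not exceed 3 counts, and the sum was 5.34 to 11.8 CPM in DMSO_siNT and 10.1 to 16.3 CPM in 4OHT_siSMARCA4. The libraries thus carried the profile of fibroblasts, with the fibroblast marker sum, most of it COL1A1, COL1A2 and VIM, lower in every knockdown library than in any growing one. Of the 10 markers 8 were called lower, NT5E was called higher and VIM was not called. Over all genes tested, 27.5% were called lower and 29.5% higher. The part of the markers in the other results was not tested.

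SMARCA4, the targeted gene, checked the labels. It stood at 185, 213, 216, 230.2 and 230.0 CPM in the growing libraries and at 71.9 to 142 CPM with a median of 90.98 in the knockdown libraries. No knockdown library reached the lowest growing library, and the log2 fold change was -1.10 ± 0.16 (SE, adjusted p = 3.10e-05). By set, it was -1.54 within VM sets and -0.75 within V sets. Knockdown libraries 2-3V, 4-2V and 4-3V held 128, 142 and 93.1 CPM, and 2-3VM, 4-2VM and 2-none held 88.9, 71.9 and 79.95 CPM. The 4OHT_siNT libraries held 276 to 329.6 CPM, above both groups. SMARCA4 was thus low but present in the knockdown cells. The transgene was checked on its components. ESR1, the receptor gene, was at 1284, 1142, 1014, 1285 and 1039 CPM in DMSO_siNT and 1943 to 2661 CPM with a median of 2194 in 4OHT_siSMARCA4, and HRAS at 2330.1, 2207, 2122, 2538 and 2866 and 3243 to 4953 CPM with a median of 4505. Both rose, with log2 fold changes of 0.95 (adjusted p = 3.92e-06) and 0.86 (adjusted p = 3.23e-05). In the DMSO_siNT library that was left out, ESR1 was at 28 and HRAS at 414 CPM, far below the other growing libraries, and with that library added ESR1 was no longer called.

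Of 12928 genes tested, 7379 were called at an adjusted p under 0.05 (57.1%), 3818 of them higher (29.5%) and 3561 lower (27.5%) in 4OHT_siSMARCA4. With upper quartile scaling, which moved the median log2 fold change of all genes by -0.11, the split was 2994 higher and 4294 lower. A change of over 2-fold was called for 1716 genes (13.3%), of which 618 rose and 1098 fell. For 4863 genes (37.6%) the 95% interval of the fold change lay within 1.5-fold, 1014 of them also called, and 1700 genes were neither called nor held within 1.5-fold. The libraries of the groups did not overlap for 5001 genes (38.7%). Over all genes tested, the median log2 fold change was 0.03. Within VM sets alone 4919 genes were called, or 6042 with 2-none counted as VM by its column name, an alternative chosen after seeing the data, and within V sets alone 5836. With the left-out DMSO_siNT library added, 5672 genes were called, 1515 of them over 2-fold, and 3247 lay within 1.5-fold. These shares are the background against which the counts of each gene list are to be read.

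**Figure D1:**
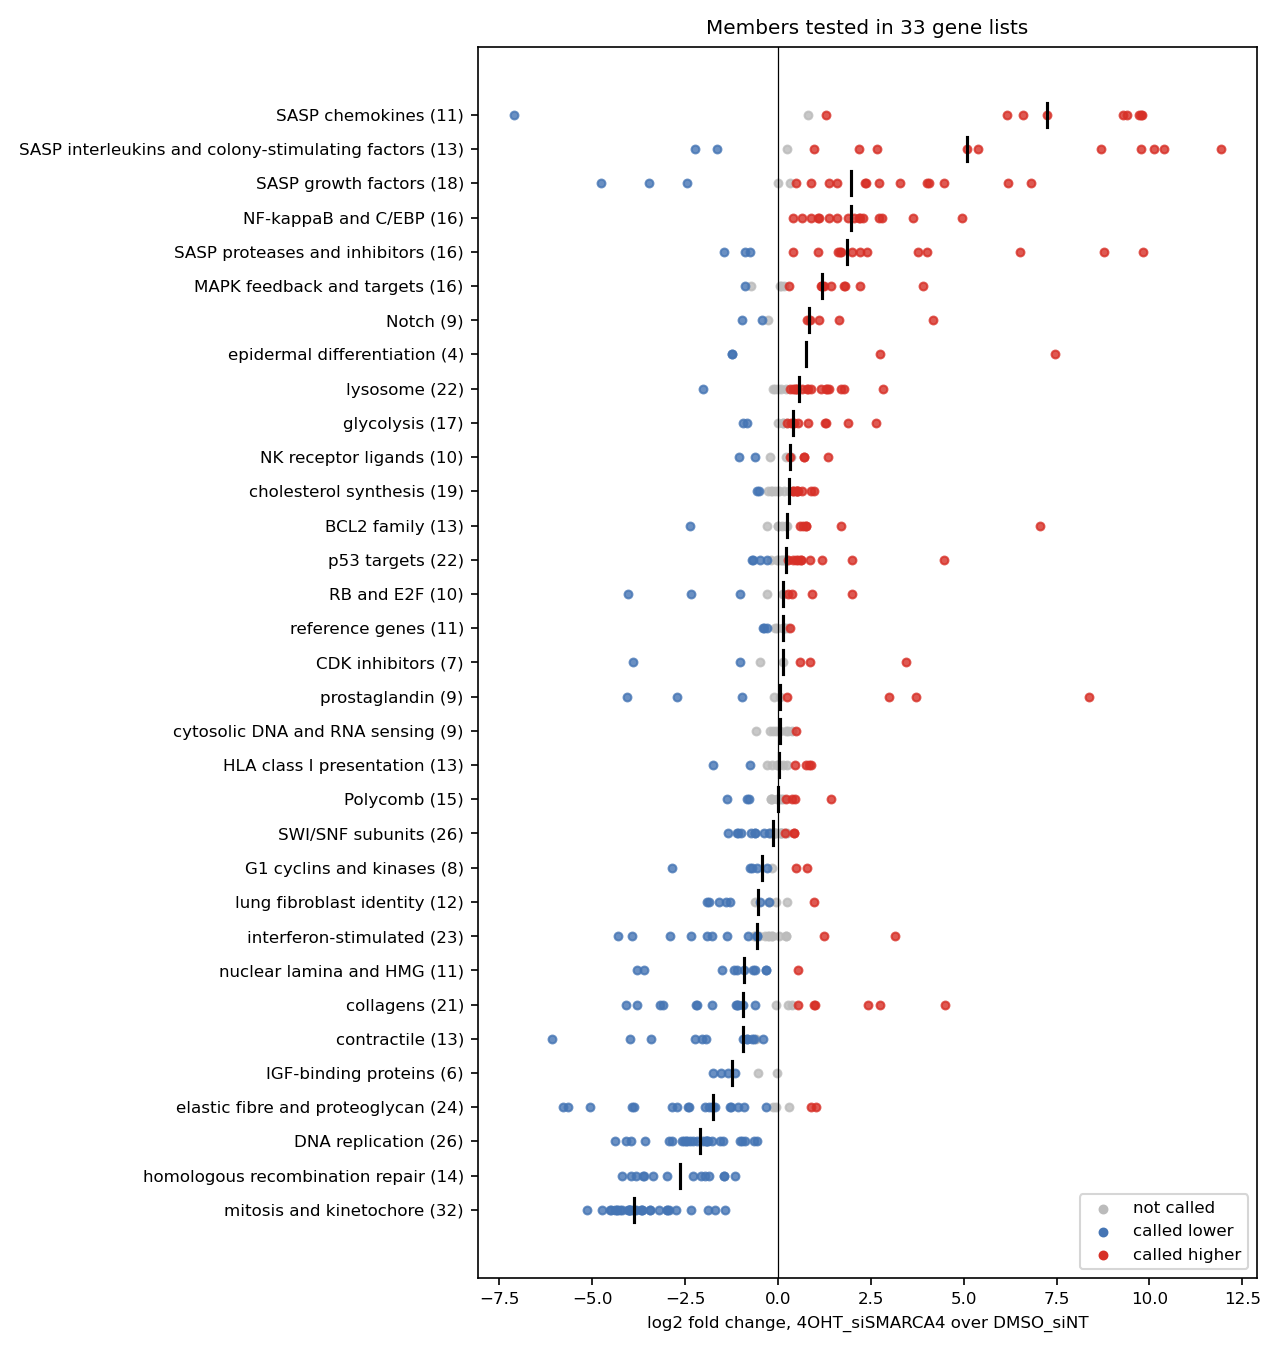
Each point is a gene tested in 1 of 33 gene lists, placed by its log2 fold change of 4OHT_siSMARCA4 (6 libraries) over DMSO_siNT (5 libraries), with the number of members tested in brackets. Red and blue points were called higher and lower at an adjusted p under 0.05, grey points were not called, and black bars are list medians. Mitosis, repair and replication genes lie wholly to the left, and NF-kappaB and C/EBP genes wholly to the right.

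Proliferation genes were lower in the knockdown cells. All 26 DNA replication genes, all 32 mitosis and kinetochore genes and all 14 homologous recombination repair genes tested were called lower. Over all genes the share called lower was 27.5%. Overlap between the groups was absent for 38.7% of all genes and for all 72 of these. Their median log2 fold changes were -2.10, -3.88 and -2.64. Within V sets alone the medians were -2.44, -4.37 and -3.03, and within VM sets alone -2.06, -3.42 and -2.85. Over members with at least 10 counts in every library, the repair median was -1.50. A member that passed the filter only through the growing libraries had to differ. In bulk RNA, fewer cells that express a gene and less RNA per cell cannot be told apart.

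CDK1, the kinase that drives entry into mitosis, was at 23.97, 25.3, 17.4, 23.8 and 25.5 CPM in the growing libraries and at 0.794 to 2.57 CPM with a median of 1.81 in the knockdown libraries. Every knockdown library lay several-fold below the lowest growing library, which was 2-2VM, and the log2 fold change was -3.81 ± 0.24 (SE, adjusted p = 8.66e-09). The 4OHT_siNT libraries held 0.341 to 1.01 CPM. MKI67, the proliferation antigen Ki-67, was at 55.2, 84.3, 37.5, 50.98 and 24 CPM and then at 0.729 to 2.13 CPM with a median of 1.33, with no overlap. Its log2 fold change of -5.15 ± 0.33 (SE, adjusted p = 8.86e-09) was the largest fall among the mitosis genes, followed by DLGAP5, a spindle protein, at -4.75. TOP2A, the topoisomerase that untangles replicated chromosomes, fell from 110.4 ± 17.9 to 7.43 ± 2.68 CPM (mean ± SD, n = 5 and n = 6). In the replication list the largest falls were those of TK1, the thymidine kinase of the salvage pathway, at -4.39, and POLE2, a polymerase epsilon subunit, at -4.10. PCNA, the sliding clamp, fell least, from 109 ± 11.9 to 73.8 ± 10.2 CPM. FANCD2 and BRIP1 of the Fanconi pathway fell by 4.21 and 3.96 on the log2 scale, and CHEK1, the checkpoint kinase, by 1.44.

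**Figure D2:**
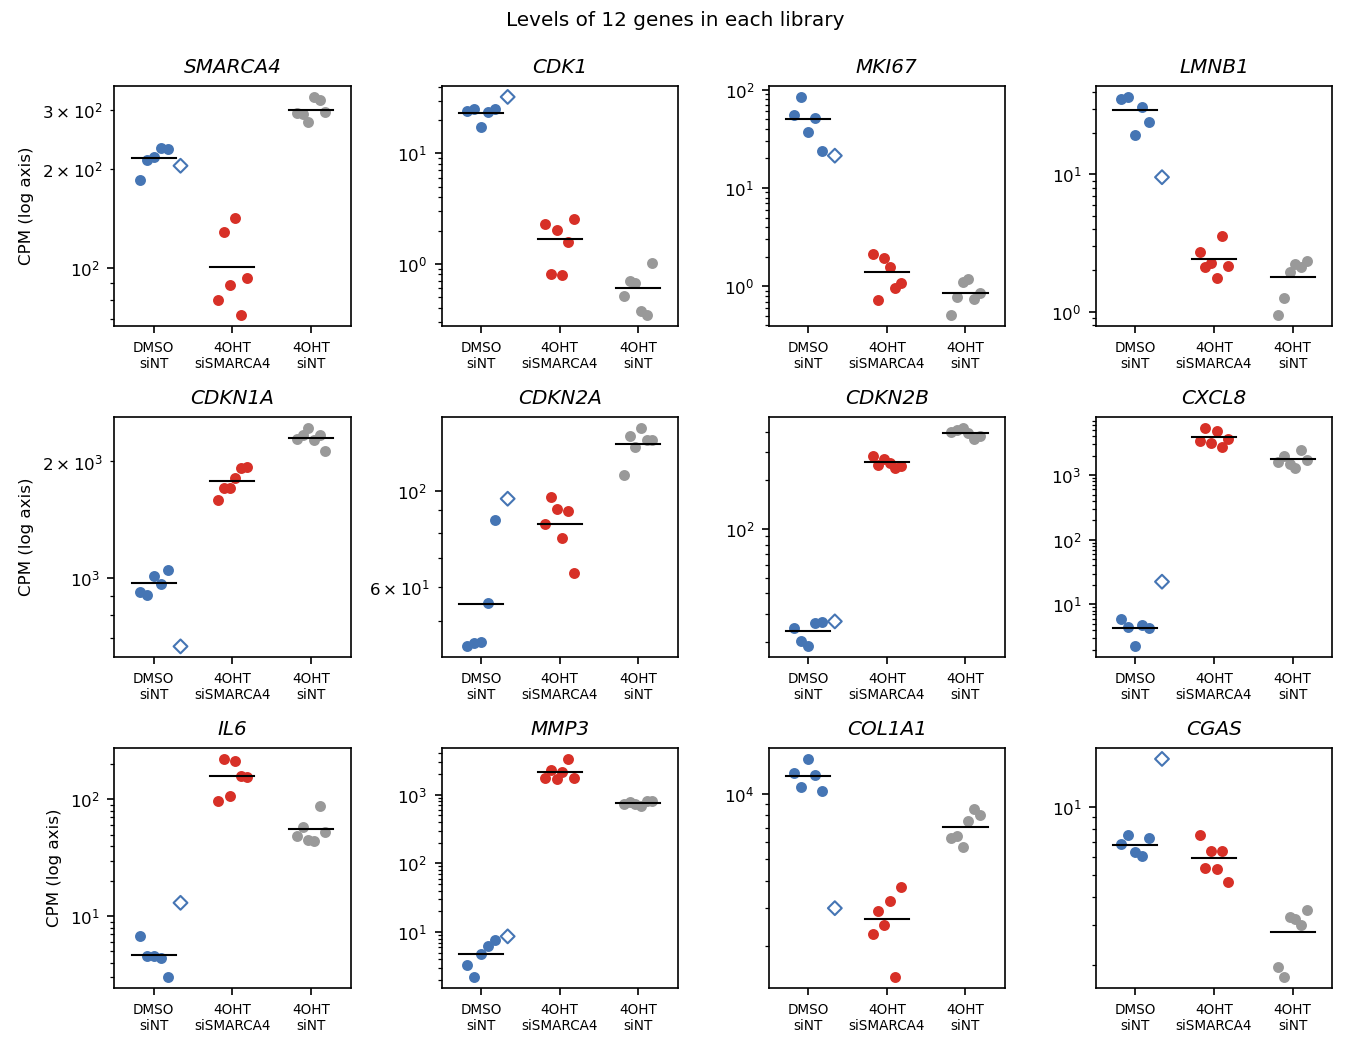
Levels of 12 genes in each library, in CPM on a log axis, for DMSO_siNT (blue, n = 5), 4OHT_siSMARCA4 (red, n = 6) and 4OHT_siNT (grey, n = 6, in no test). Black bars are means over the filled points and the open diamond is the DMSO_siNT library that was left out. CDK1, MKI67 and LMNB1 are low in all red and grey points, CXCL8, IL6 and MMP3 are highest in the red points, and CGAS overlaps between the blue and red points.

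Many promoters of the mitosis and replication genes hold short elements, shown here as a description. The repair list was not searched, and a link of the elements to the fall was not tested. Windows run from 250 bases before to 50 after the RefSeq start (GRCh38.p14), 5′ to 3′ on the gene's strand, and a match on either strand was counted. In the first pair, capitals mark the CHR element TTTGAA and the CCAAT box CCAAT of cell-cycle genes. In the third, capitals mark the E2F site, spelled TTTCCCGC, TTTCGCGC, TTTGCCGC or TTTGGCGC. In MKI67 a CHR and a CCAAT match overlap, and the 4 matches in MCM6 form 2 overlapping pairs on opposite strands.
CDK1 (chr10:60778081-60778380, plus strand): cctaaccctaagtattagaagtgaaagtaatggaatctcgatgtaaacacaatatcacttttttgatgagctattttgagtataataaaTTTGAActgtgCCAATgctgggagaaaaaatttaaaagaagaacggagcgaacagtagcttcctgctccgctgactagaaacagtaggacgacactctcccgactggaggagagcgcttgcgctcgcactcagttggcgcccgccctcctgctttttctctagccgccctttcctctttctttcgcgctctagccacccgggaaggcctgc
MKI67 (chr10:128126374-128126673, minus strand): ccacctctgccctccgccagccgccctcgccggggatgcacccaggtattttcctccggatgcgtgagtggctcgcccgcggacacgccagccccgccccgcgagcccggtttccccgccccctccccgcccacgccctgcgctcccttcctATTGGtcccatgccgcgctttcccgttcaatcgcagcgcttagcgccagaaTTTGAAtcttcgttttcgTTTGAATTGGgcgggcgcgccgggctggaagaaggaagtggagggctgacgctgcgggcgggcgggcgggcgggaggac
MCM6 (chr2:135876394-135876693, minus strand): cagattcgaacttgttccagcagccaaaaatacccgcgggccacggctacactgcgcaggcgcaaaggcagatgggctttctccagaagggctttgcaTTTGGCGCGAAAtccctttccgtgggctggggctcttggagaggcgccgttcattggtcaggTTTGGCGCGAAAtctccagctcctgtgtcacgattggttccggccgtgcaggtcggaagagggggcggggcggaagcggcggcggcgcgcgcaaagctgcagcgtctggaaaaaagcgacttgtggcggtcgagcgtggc
The CHR element was present in 18 of the 27 mitosis genes called lower that had a promoter in the table (66.7%), against 15.4% of 27305 promoters and 9.61% of the 10199 promoters of genes tested. The CCAAT box was present in 21 of the 27 (77.8%), against 35.7% and 36.6%. The E2F site was present in 15 of 24 replication genes called lower (62.5%), against 3.33% and 5.39%. These are matches of letters, not sites of binding. MCM6, a subunit of the replicative helicase with 4 such matches, was chosen for print after its values were seen. It was at 38.6, 43.6, 34.5, 30.4 and 26.5 CPM in the growing libraries and at 4.802 to 7.13 CPM with a median of 5.705 in the knockdown libraries, with no overlap and a log2 fold change of -2.60 ± 0.15 (SE, adjusted p = 2.37e-09).

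The inhibitors of cyclin-dependent kinases split. Of 7 tested, 3 were called higher, 2 lower and 2 were not called, beside 29.5% higher and 27.5% lower over all genes. CDKN2B, which encodes p15 and blocks CDK4 and CDK6, was at 24.4, 20.2, 18.8, 26.4 and 26.6 CPM in the growing libraries and at 239 to 284 CPM with a median of 253 in the knockdown libraries. The groups stood far apart, and the log2 fold change was 3.46 ± 0.11 (SE, adjusted p = 1.40e-11). The 4OHT_siNT libraries lay above both, at 359 to 421 CPM. CDKN1A, which encodes p21, the p53-induced inhibitor of CDK2, was at 922, 901, 1011, 967 and 1051 CPM and then at 1587 to 1939 CPM with a median of 1762, a log2 fold change of 0.87 ± 0.09 (SE, adjusted p = 1.09e-06) with no overlap, and at 2124 to 2442 CPM in 4OHT_siNT. CDKN2A was at 43.7, 44.6, 44.9, 55.1 and 85.7 CPM in the growing libraries and at 64.5 to 96.6 CPM with a median of 86.7 in the knockdown libraries. The growing library 4-3VM lay inside the knockdown range, and the log2 fold change was 0.61 ± 0.17 (SE, adjusted p = 0.00652). Its 4OHT_siNT libraries held 109 to 139.5 CPM, above every library of both groups. The CDKN2A call did not hold in every subset: the log2 fold change was 0.49 within VM sets (adjusted p = 0.134), 0.81 within V sets (adjusted p = 0.00279), 0.46 with siSMARCA4_4 alone (adjusted p = 0.100) and 0.37 with the left-out library added (adjusted p = 0.194). Counts are per gene, so the p16 and ARF transcripts of CDKN2A were not separated. CDKN2C, which encodes p18, fell from 11.4 ± 1.58 to 0.764 ± 0.387 CPM, and CDKN1B, which encodes p27, from 27.01 ± 1.14 to 13.3 ± 1.402 CPM.

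Among G1 cyclins and kinases, 2 of 8 were called higher and 5 lower, beside 29.5% and 27.5% of all genes. CCNE2 fell by 2.85 on the log2 scale while CCNE1 rose by 0.77; both encode partners of CDK2. CCND1, the D-type cyclin downstream of growth factors, was at 2819 ± 331 and 2553 ± 458 CPM and was not called. Of 10 RB and E2F genes, RB1 was not called at 0.15 (95% interval -0.08 to 0.38). The pocket protein gene RBL1 fell by 2.35 on the log2 scale. E2F7, an E2F repressor, rose from 24.8 ± 4.95 to 99.5 ± 30.1 CPM, and E2F8, its close relative, was at most 3 counts in every knockdown library, at least 7.899-fold lower than in growing cells. E2F8 passed the filter only through the growing libraries, so it had to differ.

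The nuclear lamina and HMG genes were called lower in 10 of 11 cases, against 27.5% of all genes. A change of over 2-fold was called for 3 of them, against 13.3% of all genes. LMNB1, the lamin B1 gene whose loss is a common mark of senescence, was at 35.6, 36.5, 19.3, 30.7 and 23.9 CPM in the growing libraries and at 1.76 to 3.53 CPM with a median of 2.22 in the knockdown libraries. No library overlapped, and the log2 fold change was -3.61 ± 0.20 (SE, adjusted p = 2.43e-09), beside 0.9401 to 2.34 CPM in 4OHT_siNT. HMGB2, a chromatin protein also lost in senescence, fell by 3.79 on the log2 scale. HMGA1 fell by 0.33, a call lost within V sets and with siSMARCA4_4 alone. HMGA2, the other architectural HMGA gene, was the only member that rose, by 0.53, a call lost within VM sets and with siSMARCA4_2 alone.

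Most SASP genes were higher in the knockdown cells. Of 13 interleukin and colony-stimulating factor genes tested, 10 were called higher and 2 lower, and of 11 chemokine genes 9 were higher and 1 lower, against 29.5% and 27.5% of all genes. The median log2 fold changes were 5.08 and 7.24, or 3.97 and 6.60 with genes at 3 counts or fewer set at their bound. Within V sets they were 4.60 and 6.73, and within VM sets 4.82 and 7.95. The medians depended on the filter: over all members of at least 1 count they were 2.91 and 4.36, and over members with at least 10 counts in every library the interleukin median was 1.53. A member that passed only through the knockdown libraries had to differ. The lists also hold 3 interleukin and 7 chemokine genes that did not pass the filter on low counts and are not counted.

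IL1A, the apical cytokine that acts at the cell surface to start the secretory programme, was at 0.208, 0, 0.06997, 0.0739 and 0.146 CPM in the growing libraries and at 69.7 to 142 CPM with a median of 92.1 in the knockdown libraries. No growing library exceeded 3 counts, so the gene was at least 445-fold higher (adjusted p = 4.60e-11). The 4OHT_siNT libraries held 50.6 to 91.4 CPM, a range that overlapped the knockdown libraries. IL1B, its secreted relative, was at 2.08, 0.644, 0.3499, 0.369 and 0.732 CPM and then at 598 to 2038 CPM with a median of 1108, with the lowest knockdown library far above the highest growing one and a log2 fold change of 10.40 ± 0.56 (SE, adjusted p = 1.49e-09). Its 4OHT_siNT libraries held 787 to 1458 CPM. Knockdown libraries 2-none, 2-3VM and 4-2VM, at 598, 617 and 707 CPM, lay below all of these. Knockdown libraries 2-3V, 4-2V and 4-3V, at 1509, 2038 and 1513 CPM, lay above them. IL6, a cytokine that reinforces the arrest, was at 6.74, 4.59, 4.55, 4.36 and 3.0 CPM and then at 97.7 to 222 CPM with a median of 156. Its groups did not overlap, its log2 fold change was 5.08 ± 0.27 (SE, adjusted p = 1.39e-09), and 4OHT_siNT held 44.3 to 87.2 CPM, between growing and knockdown cells. CSF3, the granulocyte growth factor, was at 0 in 3 of the 5 growing libraries and at no more than 3 counts in the others, and at 73.1 to 246 CPM with a median of 165 in the knockdown libraries, at least 694-fold higher. In 4OHT_siNT it was at 44.6 to 139 CPM, overlapping the knockdown range. IL1A, IL1B and CSF3 passed the filter only through the knockdown libraries, so they had to differ. The members that fell were CSF1, the macrophage growth factor, by 1.64 and IL15, a cytokine that sustains natural killer cells, by 2.24 on the log2 scale. TSLP was not called at 0.25 (95% interval -0.56 to 1.05), but it was called without DMSO_siNT library 2-1V (0.77).

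CXCL8, which encodes the neutrophil chemokine IL-8, was at 5.98, 4.43, 2.24, 4.73 and 4.32 CPM in the growing libraries and at 2760.0 to 5376 CPM with a median of 3492 in the knockdown libraries. The groups stood far apart, with a log2 fold change of 9.78 ± 0.30 (SE, adjusted p = 9.17e-12). The 4OHT_siNT libraries held 1303 to 2468 CPM, all below the lowest knockdown library. The left-out DMSO_siNT library was at 22.4 CPM. CXCL5, CXCL1 and CXCL3, of the same family of CXCR2 ligands, had log2 fold changes of 9.81, 9.72 and 9.30, and CCL20, a ligand of CCR6, was detected in 1 growing library and at 19.5 to 78.6 CPM with a median of 47.7 in the knockdown libraries. CXCL1 was at 161 to 661 CPM in the knockdown libraries and at 154 to 398 CPM in 4OHT_siNT, so that these ranges overlapped. The same held for CXCL5 (301 to 843 and 177 to 376 CPM) and CXCL3 (101 to 305 and 85.0 to 151 CPM). CXCL5, CXCL1, CXCL3 and CCL20 passed the filter only through the knockdown libraries, so they had to differ from growing cells. CXCL1 and CXCL3 are near-identical copies whose reads the counting could have split, so their separate values are uncertain. CXCL12, the stromal ligand of CXCR4, went the other way, from 14.8, 14.4, 14.8, 14.6 and 18.9 CPM to 0 to 0.331 CPM with a median of 0.0852, with a log2 fold change of -7.11 ± 0.33 (SE, adjusted p = 3.85e-10). CXCL12 passed the filter only through the growing libraries, so it had to differ. CCL2 was not called (adjusted p = 0.0652), and its groups overlapped, but it was called within V sets alone and when 4OHT_siSMARCA4 libraries 2-none, 2-3VM or 4-2VM or DMSO_siNT library 2-1V were left out.

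The CXCL1 promoter, shown for its NF-kappaB matches, is marked in capitals at each match to the NF-kappaB site on either strand, here 2 overlapping matches on opposite strands.
CXCL1 (chr4:73869143-73869442, plus strand): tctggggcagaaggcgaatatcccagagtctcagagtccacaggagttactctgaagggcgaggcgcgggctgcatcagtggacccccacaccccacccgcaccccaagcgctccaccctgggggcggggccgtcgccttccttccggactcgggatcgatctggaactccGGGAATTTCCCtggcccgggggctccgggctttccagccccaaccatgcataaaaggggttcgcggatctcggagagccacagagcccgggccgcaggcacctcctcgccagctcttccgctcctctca
The site was present in 7 of the 9 chemokine genes called higher that had a promoter in the table (77.8%), against 5.72% of all promoters and 6.51% of the promoters of genes tested, and in 2 of 8 interleukin genes called higher. It was absent from the window of CXCL12. Members not called were not counted, and a link of the site to the rise was not tested.

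The proteases and growth factors of the SASP were mostly higher as well. For the lists of this paragraph, the shares over all genes were 29.5% called higher and 27.5% lower. Of 16 proteases and inhibitors tested, 13 were called higher and 3 lower (median 1.85), and of 18 growth factors 13 were higher and 3 lower (median 1.97). MMP3, stromelysin 1, was at 3.34, 2.17, 4.83, 6.21 and 7.61 CPM in the growing libraries and at 1691 to 3323 CPM with a median of 1940.0 in the knockdown libraries, a log2 fold change of 8.78 ± 0.34 (SE, adjusted p = 7.09e-11). Its lowest knockdown library lay above the highest 4OHT_siNT library, whose group ran from 674 to 811 CPM. MMP1, interstitial collagenase, was at 347, 421, 624, 574 and 693 CPM and then at 7989.8 to 9679 CPM with a median of 8433, with a log2 fold change of 4.01 ± 0.18 (SE, adjusted p = 2.84e-10). MMP10, stromelysin 2, was at 0.347, 0, 0, 0 and 0.146 CPM in the growing libraries and at 65.4 to 126 CPM with a median of 112 in the knockdown libraries, a log2 fold change of 9.81 ± 0.38 (SE, adjusted p = 7.65e-11). MMP10 passed the filter only through the knockdown libraries, so it had to differ. The 4OHT_siNT libraries held 11.1 to 28.2 CPM of it. The inhibitors TIMP2 and TIMP3 fell by 0.90 and 1.46, while the proteases named here rose. BMP2, a morphogen of the TGF-beta superfamily, was the growth factor with the largest rise, from 5.98, 4.27, 7.49, 6.797 and 5.78 CPM to 614 to 839 CPM with a median of 655, a log2 fold change of 6.82 ± 0.16 (SE, adjusted p = 9.38e-13). AREG, an EGF receptor ligand, rose by 6.18, and FGF1 fell by 3.48. PTGS2, the inducible cyclooxygenase of prostaglandin synthesis, was at 2.64, 1.69, 2.099, 2.51 and 1.68 CPM and then at 579 to 932 CPM with a median of 678, a log2 fold change of 8.37 ± 0.19 (SE, adjusted p = 7.85e-13), beside 191 to 339 CPM in 4OHT_siNT. In its list of 9, 4 were called higher and 3 lower, and the falls included those of the receptor gene PTGER2 and of PTGS1, the constitutive isoform. The 6 insulin-like growth factor binding protein genes tested had 4 calls, all lower (median -1.25, or -0.47 within V sets), and IGFBP5 was at 3777, 3261, 4380.1, 2653 and 1773 CPM against 770.2 to 4336 CPM with a median of 1857. It was not called, but it was called lower within VM sets alone (log2 fold change -1.83) and with siSMARCA4_2 alone (-1.08).

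The MMP10 promoter, with the AP-1 site TGANTCA in capitals, is shown because MMP10 rose most of the proteases.
MMP10 (chr11:102780579-102780878, minus strand): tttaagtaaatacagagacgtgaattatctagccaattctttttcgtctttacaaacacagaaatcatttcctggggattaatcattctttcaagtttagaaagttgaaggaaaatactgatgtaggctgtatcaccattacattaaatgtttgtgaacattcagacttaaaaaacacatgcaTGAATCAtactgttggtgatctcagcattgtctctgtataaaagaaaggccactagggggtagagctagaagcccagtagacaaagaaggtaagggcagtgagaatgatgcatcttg
The AP-1 site was present in 3 of the 7 proteases called higher with a promoter in the table and in 3 of 8 such interleukin genes, against 7.76% of all promoters and 4.56% of the promoters of genes tested. MMP1 and MMP3 were not in the table.

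Genes of NF-kappaB and C/EBP were higher without exception. All 16 tested were called higher (median 1.97, or 1.69 within V sets and 1.98 within VM sets), against 29.5% of all genes. ICAM1, an adhesion molecule induced by NF-kappaB, was at 42.7, 29.7, 9.73, 15.7 and 11.3 CPM in the growing libraries and at 459 to 1119.6 CPM with a median of 595 in the knockdown libraries, a log2 fold change of 4.96 ± 0.43 (SE, adjusted p = 1.80e-07). BIRC3, an inhibitor of apoptosis, was at 7.57, 7.57, 4.76, 4.43 and 4.097 CPM and then at 63.2 to 78.2 CPM with a median of 71.3. Its 4OHT_siNT libraries held 15.4 to 23.9 CPM, below every knockdown library. SOD2, the mitochondrial superoxide dismutase, rose by 2.73 on the log2 scale. Of 16 MAPK feedback and target genes, 11 were called higher and 1 lower (median 1.18). IER3, an immediate early gene, rose most, by 3.92, and FOSL1, an AP-1 subunit, fell by 0.88. DUSP4, a phosphatase of ERK, was at 4.73, 5.71, 7.77, 4.88 and 6.73 CPM and then at 15.5 to 45.6 CPM with a median of 25.9, while 4OHT_siNT held 68.5 to 102 CPM. DUSP1 and EGR1, early genes of the same pathway, were not called.

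The interferon genes did not rise as a group. The list of interferon-stimulated genes held 23 with enough counts, of which 10 fell, 2 rose and 11 were not called (median -0.56). Over all genes 27.5% were called lower and 29.5% higher. IFIT1, an RNA-binding antiviral protein, was at 14.2, 7.404, 5.46, 5.62 and 5.49 CPM in the growing libraries and at 0.081 to 0.707 CPM with a median of 0.371 in the knockdown libraries, with no overlap and a log2 fold change of -4.30 ± 0.41 (SE, adjusted p = 5.95e-07). Its 4OHT_siNT libraries held 0.623 to 1.93 CPM. IFIT1 passed the filter only through the growing libraries, so it had to differ. IFIT2 fell by 3.92, and the members that rose were ISG20, an exonuclease, by 3.16 and IRF1, a transcription factor, by 1.23. STAT2, a transducer of the interferon signal, was not called. IFITM3 fell by 0.56 and shares sequence with other IFITM genes, so its value is uncertain.

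The IFIT1 promoter is shown because IFIT1 had the largest fall of the list, with the interferon-stimulated response element in capitals.
IFIT1 (chr10:89392373-89392672, plus strand): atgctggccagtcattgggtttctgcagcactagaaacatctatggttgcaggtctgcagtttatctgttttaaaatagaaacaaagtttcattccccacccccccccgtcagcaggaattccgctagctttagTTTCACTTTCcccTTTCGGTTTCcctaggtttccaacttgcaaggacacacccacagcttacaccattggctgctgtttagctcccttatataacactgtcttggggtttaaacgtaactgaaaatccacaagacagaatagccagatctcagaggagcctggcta
The element was present in all 8 list genes called lower with a promoter in the table and in 1 of the 2 called higher, against 3.65% of all promoters and 2.71% of the promoters of genes tested. The list was chosen for genes stimulated by interferon, and its members not called were not counted. A link of the element to the fall was not tested.

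Of 9 genes for sensing cytosolic DNA and RNA, 1 was called, against 57.1% of all genes. CGAS, the cytosolic DNA sensor, was at 6.88, 7.48, 6.298, 6.06 and 7.32 CPM in the growing libraries and at 4.64 to 7.54 CPM with a median of 5.85 in the knockdown libraries. The groups overlapped, and the log2 fold change of -0.21 ± 0.14 (SE, adjusted p = 0.23) had a 95% interval of -0.52 to 0.10, within 1.5-fold. That interval belongs to the 11 libraries together. The CGAS log2 fold change was -0.53 within V sets (adjusted p = 0.0629), -0.10 within VM sets (adjusted p = 0.756) and -0.57 with the left-out library added (adjusted p = 0.0898). The 4OHT_siNT libraries held 1.76 to 3.503 CPM, below every library of both groups. TBK1, the kinase downstream of cGAS and STING, rose by 0.48 but was not called within V sets or with the left-out library added. MAVS and ADAR were not called, though ADAR was called higher without DMSO_siNT library 2-1V (0.34). For this and the next list, the shares over all genes were 29.5% called higher and 27.5% lower. Of 13 genes for antigen presentation by HLA class I, 4 were called higher and 2 lower, and B2M, the invariant light chain, was not called. TAP1 and TAP2, the peptide transporter subunits, rose by 0.83 and 0.88, and PSMB9, an immunoproteasome subunit, fell by 1.75. Of 10 ligands of activating NK receptors, 4 were called higher and 2 lower (median 0.32). PVR, a ligand of DNAM-1, rose by 0.69, and ULBP1, a ligand of NKG2D, rose by 1.34 but was not called within VM sets. MICB fell by 0.61, and its call was lost within VM sets and with the left-out library added. MICA was not called, though it was called higher within V sets (0.54, adjusted p = 0.0148) and without DMSO_siNT library 4-3VM (0.46, adjusted p = 0.0311).

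Lysosomal genes were mostly higher: 16 of 22 were called higher and 1 lower (median 0.58). GLB1, which encodes the beta-galactosidase stained in senescent cells, was at 91.9, 80.6, 87.3, 98.6 and 91.5 CPM in the growing libraries and at 118 to 143 CPM with a median of 122 in the knockdown libraries. It rose without overlap, with a log2 fold change of 0.47 ± 0.08 (SE, adjusted p = 1.54e-04). NPC1, a cholesterol exporter, rose most, by 2.82, CTSB, cathepsin B, rose by 1.70, and FUCA1, a fucosidase, fell by 2.01. Of 22 p53 targets, 10 were called higher and 4 lower (median 0.22), beside 29.5% and 27.5% of all genes. GDF15, a stress cytokine, was at 68.8, 53.9, 76.8, 80.3 and 102 CPM and then at 1384 to 2013 CPM with a median of 1793, a log2 fold change of 4.48 ± 0.18 (SE, adjusted p = 8.49e-11), and PLK3, a stress kinase, rose by 1.98. FAS, the death receptor, and SESN1 fell by 0.66 and 0.69, and BAX and ZMAT3 were not called, though BAX was called higher without 4OHT_siSMARCA4 library 4-3V (0.28) or DMSO_siNT library 4-3VM (0.33). In the BCL2 family, 6 of 13 were called higher and 1 lower. BCL2A1, an anti-apoptotic member induced by NF-kappaB, was at 0.208, 0.241, 0.06997, 0.0739 and 0.512 CPM and then at 21.2 to 42.2 CPM with a median of 29.7, a log2 fold change of 7.05 ± 0.35 (SE, adjusted p = 6.94e-10). It passed the filter only through the knockdown libraries, so it had to differ. MCL1 rose by 1.69, BCL2 fell by 2.36 (not called within VM sets), and BCL2L1 was not called.

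Energy and lipid genes moved in both directions, beside 29.5% of all genes called higher and 27.5% called lower. Of 17 glycolysis genes, 10 were called higher and 2 lower (median 0.40, or 0.20 within VM sets); HK2, a hexokinase, rose by 2.63, and SLC2A1 and PDK1 fell by 0.83 and 0.95. Of 19 cholesterol synthesis genes, 9 were called higher and 2 lower (median 0.28). Of 11 reference genes, 1 was called higher and 3 lower. GAPDH was at 4297 ± 314 and 4783 ± 451 CPM (mean ± SD, n = 5 and n = 6) and ACTB fell by 0.41, a call lost within V sets (-0.25, adjusted p = 0.293) and with siSMARCA4_4 alone (adjusted p = 0.0850).

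The extracellular matrix was changed in mixed directions. Over all genes, 27.5% were called lower and 29.5% higher. Of 21 collagen genes, 12 were called lower and 6 higher (median -0.94, or -0.52 within V sets). COL1A1, the main fibrillar collagen chain, was at 12451, 10735, 14432, 12175 and 10281 CPM in the growing libraries and at 1442 to 3737 CPM with a median of 2704 in the knockdown libraries, a log2 fold change of -2.17 ± 0.20 (SE, adjusted p = 3.75e-07). The 4OHT_siNT libraries held 5718 to 8476 CPM, between the groups and without overlap with either. COL1A2 fell by 3.10, COL11A1 and COL14A1 by 4.09 and 3.81, while COL5A3 and COL10A1 rose by 2.76 and 4.50. Of 24 elastic fibre and proteoglycan genes, 19 were called lower and 2 higher (median -1.76). DCN, the small proteoglycan decorin, was at 871, 661, 496, 539 and 493 CPM and then at 7.25 to 15.9 CPM with a median of 10.8, a log2 fold change of -5.78 ± 0.23 (SE, adjusted p = 1.02e-10). ELN, elastin, fell with a wide spread among growing libraries, 1.95 to 32.5 CPM, to 0 to 0.895 CPM. FN1 fell by 0.93 with overlapping groups and was not called with siSMARCA4_4 alone. TNC, a matrix protein of wounds, rose by 1.02 but was not called within VM sets. Of 13 contractile genes, 12 were called lower and none higher (median -0.95). ACTA2, smooth muscle actin, was at 247, 299, 544, 256 and 263 CPM and then at 72.7 to 102 CPM with a median of 81.7, a log2 fold change of -1.93 ± 0.19 (SE, adjusted p = 8.42e-07), and LMOD1, a nucleator of actin in muscle, fell by 6.10.

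Lung fibroblast identity genes were called lower in 7 of 12 cases and higher in 1 (median -0.54, or -1.27 within V sets and -0.37 within VM sets). For this and the Notch list, the shares over all genes were 27.5% called lower and 29.5% higher. FOXF1, a factor of lung mesenchyme, was the riser at 0.96, not called with the left-out library added, and TBX5 and PDGFRB fell by 1.87 and 1.90. PDGFRA was not called, but it was called lower within V sets (-0.53). Of 9 Notch genes, 5 were called higher and 2 lower, with HEY1, a Notch target, at 4.16. In the epidermal differentiation list 18 of 22 genes did not pass the filter. LCE1F, a cornified envelope gene, was at no more than 3 counts in the growing libraries and at 1.56 to 13.7 CPM with a median of 4.73 in the knockdown libraries, at least 30.6-fold higher, while 4OHT_siNT held 20.9 to 26.8 CPM. LCE genes are near-identical copies, so this value is uncertain. LCE1F also passed the filter only through the knockdown libraries, so it had to differ.

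The SWI/SNF and Polycomb lists held no more calls than the share of 57.1% over all genes. Of 26 SWI/SNF subunit genes, 9 were called lower, SMARCA4 included, and 3 higher (median -0.13). SMARCD3 fell most, by 1.36, SS18 and BCL7B rose by 0.44 and 0.42, and ARID1A and SMARCC1 were not called. The BCL7B call was lost within VM sets and with the left-out library added. Of 15 Polycomb genes, 4 were called higher and 3 lower (median 0.00). EZH2, the methyltransferase, fell from 14.6 ± 2.44 to 5.68 ± 0.889 CPM, and JARID2, a cofactor, rose by 1.44. The Polycomb, cytosolic sensing, prostaglandin and HLA class I medians lay close to 0 (0.00, 0.05, 0.06 and 0.03), changed sign with upper quartile scaling and in other alternatives, and have no direction here.

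Among called genes with a mean log2 CPM above 1 over the 11 libraries, no overlap and the same direction with both siRNAs, the largest rises were mostly those of secreted factors, namely CSF3, IL1B, TNFSF15, MMP10, CXCL5, CXCL8, IL1A, CXCL1, CCL20 and CXCL3. All of these but CXCL8 passed the filter only through the knockdown libraries and so had to differ. TNFSF15, a TNF family ligand, was at 1.32, 0.241, 0.06997, 0.443 and 0.146 CPM in the growing libraries and at 296 to 886 CPM with a median of 434 in the knockdown libraries, with 4OHT_siNT at 368 to 632 CPM. The largest falls in this selection, which leaves out genes of lower mean such as CXCL12, were those of GALNT15, KCNK2, MEST, LMOD1, ITGBL1, CORIN, DCN, OXTR, KRT19 and GDF5, with log2 fold changes from -7.20 to -5.63. Those that passed the filter only through the growing libraries, such as GALNT15, KCNK2, CORIN, OXTR and GDF5, had to differ. MEST, an imprinted gene, was at 246, 253, 380.2, 292 and 326 CPM and then at 2.297 to 4.56 CPM with a median of 3.95, and its 4OHT_siNT libraries held 18 to 57.8 CPM, above every knockdown library. KRT19, an intermediate filament gene, was at 31.9, 43.2, 51.1, 34.5 and 46.6 CPM and then at 0.265 to 1.13 CPM with a median of 0.907.

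Each siRNA was then set against the control of the same number, siSMARCA4_2 against siNT 2 and siSMARCA4_4 against siNT 4, so that the contrasts shared no library. The siNT 4 controls, 4-2VM and 4-3VM, were all from VM sets, while siSMARCA4_4 had libraries 4-2V, 4-3V and 4-2VM. Set and siRNA number therefore overlap in these contrasts, and a difference between them cannot be assigned to the siRNA. Of 13578 genes tested, 6988 were called in the first and 5570 in the second. In both, 4329 were called, 61.9% and 77.7% of the calls of each, and 4309 of them (31.7% of genes tested) moved in the same direction. Across genes the log2 fold changes had a Pearson correlation of 0.89, a description of genes that are not independent replicates. No gene differed between the contrasts at an adjusted p under 0.05 (0%) by edgeR, 2364 at an unadjusted p under 0.05, and 107 by DESeq2. Without 4OHT_siSMARCA4 library 4-2VM the count was 1024, and without DMSO_siNT libraries 4-2VM and 2-2VM it was 163 and 3, so the count of 0 depended on those libraries. With all genes of at least 1 count it was 454. All 32 mitosis genes were called in both, as were 12 of the 13 interleukin genes. CDKN2A was less even, with log2 fold changes of 0.97 and 0.10, and IGFBP5 was at -1.35 and 0.33, but neither difference was called (adjusted p = 0.204 and 0.277).

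**Figure D3:**
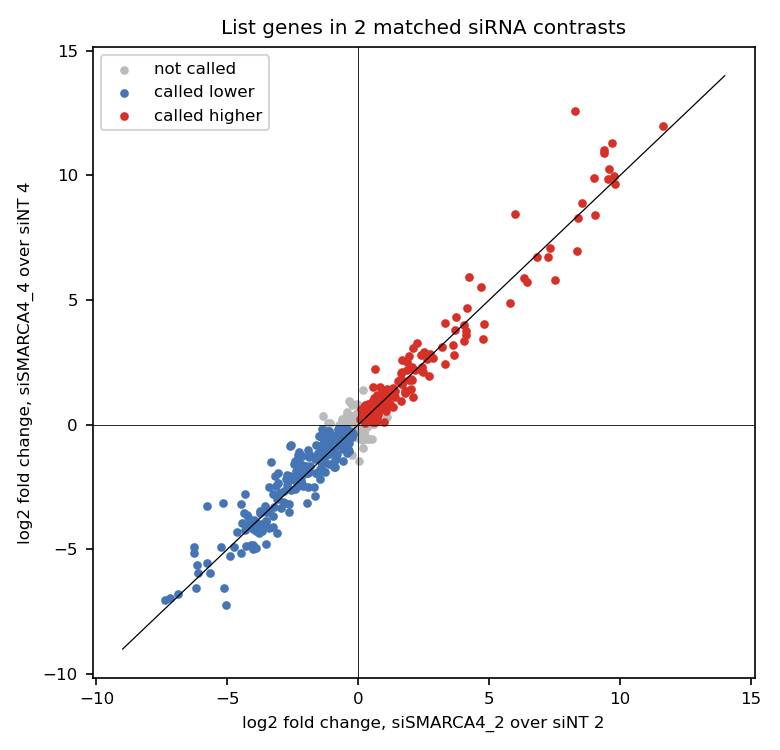
Log2 fold changes of the 508 tested genes of all lists and of the rule for named genes, for siSMARCA4_2 over siNT 2 (x axis) and siSMARCA4_4 over siNT 4 (y axis), 2 contrasts with no shared library. Colours show the call of the joint comparison and the diagonal marks equal changes; the genes lie along it from about the largest falls to CSF3.

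How far the cells were from the growing state was measured as the root mean square difference of log2 CPM, over the 12928 genes, from the mean of the 5 DMSO_siNT libraries. Each DMSO_siNT library of the 5 was compared with the mean of the others, and they lay at 0.253 to 0.461. The 6 4OHT_siSMARCA4 libraries lay at 1.14 to 1.18 (1.17 ± 0.0168, mean ± SD), above every growing library. The 4OHT_siNT libraries lay at 1.08 to 1.14, and the left-out DMSO_siNT library at 1.13. By 3 other measures the left-out library lay farther than every knockdown library, at 1.06 over all genes of at least 1 count (knockdown 1.00 to 1.03), 1.11 over genes with a mean log2 CPM above 1 (1.05 to 1.08) and 0.705 as a median absolute difference (0.416 to 0.463). These distances share the same reference libraries, and the 4OHT groups were not tested against each other. The first principal component over the 11 libraries held 79.8% of the variance.

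**Figure D4:**
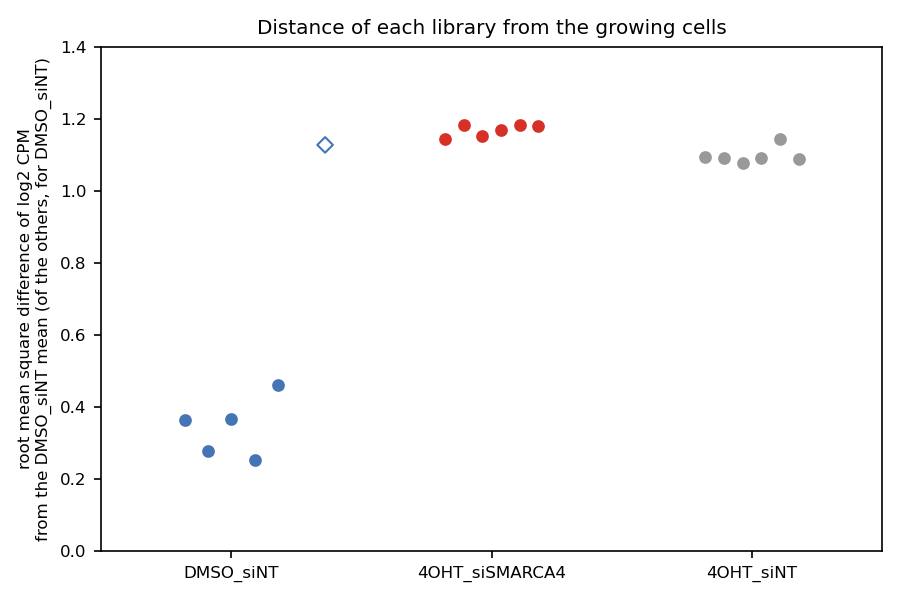
Root mean square difference of log2 CPM of each library from the mean of the 5 DMSO_siNT libraries, over 12928 genes. Blue points (n = 5) are the growing libraries, each against the mean of the others, red points (n = 6) 4OHT_siSMARCA4, grey points (n = 6) 4OHT_siNT in no test, and the open diamond is the left-out library; red points sit between 1.14 and 1.18, and blue points at 0.461 or below.

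By the mean log2 CPM of a list in each library, 24 of the 33 lists did not overlap between DMSO_siNT and 4OHT_siSMARCA4 and 9 did, the collagen, CDK inhibitor, RB and E2F, Polycomb, cytosolic sensing, HLA class I, NK ligand, cholesterol and reference lists. In 4OHT_siSMARCA4, the mitosis list was at 0.701 to 1.52, against 4.34 to 4.97 in DMSO_siNT and 0.452 to 0.671 in 4OHT_siNT. The chemokine list was at 5.01 to 6.01, against -0.29 to 0.77 and 4.36 to 5.02. The elastic fibre and proteoglycan list was at 4.71 to 5.37, against 6.65 to 7.37 and 5.94 to 6.10. These values set the 4OHT groups side by side only, since all 4OHT_siNT libraries came from VM sets and share DMSO_siNT as their reference.

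**Figure D5:**
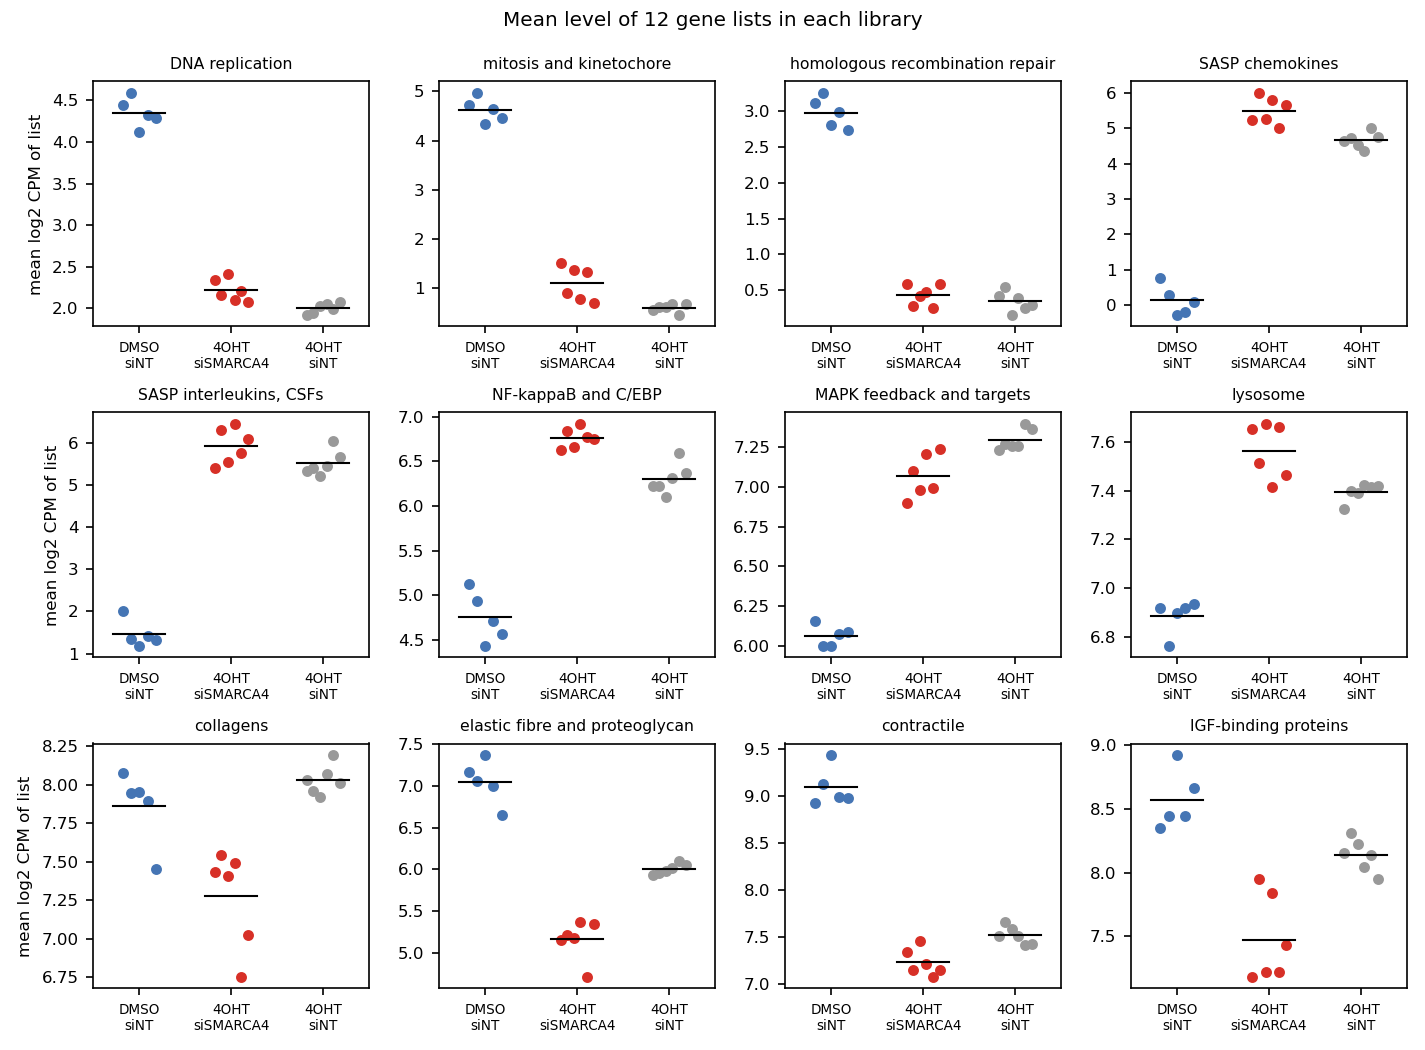
Mean log2 CPM of 12 gene lists in each library of DMSO_siNT (blue, n = 5), 4OHT_siSMARCA4 (red, n = 6) and 4OHT_siNT (grey, n = 6, in no test), with black bars at the group means. Red and grey points do not overlap in the mitosis, NF-kappaB and C/EBP, collagen, elastic fibre and IGF-binding protein panels, the last by a narrow margin. They lie close together in the replication panel.

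Some genes were at the growing level in only 1 of the 4OHT groups. These were chosen after their values were seen and are described without a test of the difference. In 205 genes with a mean log2 CPM above 1 and an interval within 1.5-fold, every 4OHT_siNT library lay above, or every one below, both groups (92 above and 113 below). This was 4.23% of the 4845 genes that met the level and the interval, against 3.44% of all 11550 genes at that level, and no minimum distance was set. CGAS was 1 of them, though its log2 fold change varied with the libraries used (-0.10 within VM sets and -0.53 within V sets). SHANK1, a synaptic scaffold gene, was at 11.5 to 23.1 CPM in the growing libraries and 10.1 to 27.8 CPM in the knockdown libraries, while 4OHT_siNT held 32.8 to 44.3 CPM. TNFRSF21, a death receptor, was at 35.1 to 50.7 CPM, 37.7 to 59.2 CPM and 68.3 to 116 CPM. BLVRB, biliverdin reductase B, was at 28.1 to 41.3 CPM, 25.4 to 49.01 CPM and, lower, 12.9 to 20.9 CPM. Conversely, 25 genes above that level changed over 2-fold without overlap in the knockdown cells while the 4OHT_siNT mean lay within 1.5-fold of the growing mean, 6 higher and 19 lower, out of 1285 such genes (1.95%). PTPRH, a receptor tyrosine phosphatase, was at 0.3499 to 1.25 CPM in the growing libraries, 2.48 to 7.51 CPM in the knockdown libraries and 0.211 to 1.296 CPM in 4OHT_siNT. SLC14A1, a urea transporter, was at 37.5 to 102 CPM, 6.396 to 24.3 CPM and 49.4 to 79.5 CPM. SERPINF1, which encodes the secreted factor PEDF, was at 30.6 to 66.99 CPM, 5.48 to 13.6 CPM and 30.7 to 38.9 CPM.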

How the data were processed

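RNA was sequenced from IMR90 ER:RAS cells, and the authors deposited whole-number read counts per gene, with the columns of each library summed over lanes here. Per the submitters' processing notes, STAR 2.7.8a, hg38 and DESeq2 1.36.0 were used. The counting program, its annotation and its use of strand are not given in the sources used here, so a gene and its antisense partner or a near-identical copy may not be separable. The counts of ESR1 and HRAS can include the transgene.

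Genes were kept by edgeR's filterByExpr with a minimum count of 10, which left 99.9% of the counts. Libraries were scaled by TMM and tested with edgeR 4.0.16 (quasi-likelihood F test, 2-sided, R 4.3.3) for 6 libraries against 5, with Benjamini-Hochberg adjustment over 12928 genes and a threshold of 0.05. The common biological coefficient of variation was 16.7%. A change of over 2-fold was tested with glmTreat. Standard errors came from the log2 fold change and its F statistic, and 95% intervals from the same fit. DESeq2 1.42.0 was an alternative, and the scripts were tested on simulated data. Levels are CPM over 18 libraries, and log2 CPM used a prior count of 2. A fold against a group with no more than 3 counts in any library is given as a bound, from a floor of 3 counts per library, which covers counting error only. Total counts are given in the report. The pairs of libraries within groups, 25 in all, differed by more than sampling noise, so no library was counted as a duplicate.

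Named genes were SMARCA4, ESR1 and HRAS; the 10 largest rises and 10 largest falls among called genes with a mean log2 CPM above 1, the same direction in both siRNA contrasts and no overlap; in each list the called members with the largest rise and fall (up to 4), the most abundant member and up to 2 members not called; and the defining members CDK1, MKI67, LMNB1, CDKN1A, CDKN2A, CDKN2B, IL1A, IL1B, IL6, CXCL8, MMP1, MMP3, CGAS, GLB1, COL1A1 and ACTA2. A few genes that the rule names are not reported here. The members and gene lists were chosen with earlier results of these data known. Promoters and motifs were read from RefSeq (GRCh38.p14), and 389 of the 498 list genes tested had an entry. Alternatives were other scalings, filters, tools, sets of libraries and each library left out in turn.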

Additional observations from a re-analysis of the deposited data

Results flagged for a closer look

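A Dixon test at the 95% level on log2 CPM marked a library standing apart from its group in 32 of the 472 groups of values tested, 25 of genes and 7 of list means, where chance marks about 1 in 20. Values below are the log2 CPM of the library that stood apart, or the list mean of log2 CPM, without explanation.

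4OHT_siSMARCA4 library 2-3V held IER3 at 11.26. 4OHT_siSMARCA4 library 4-2V held CDK4 at 7.2. 4OHT_siSMARCA4 library 4-2VM held MEST at 1.29, CHEK1 at 2.56, COL11A1 at -0.22, POSTN at 7.7, PDGFRA at 6.98, COL1A2 at 8.82, the elastic fibre and proteoglycan list at 4.71 and the fibroblast marker list at 6.75. 4OHT_siSMARCA4 library 4-3V held HRAS at 11.66, CBX2 at 0.39, PTGES2 at 5.36, ACTB at 12.72 and the Polycomb list at 3.81.

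DMSO_siNT library 2-2V held CDKN2C at 3.84 and the lysosome list at 6.76. DMSO_siNT library 2-2VM held CCL20 at -1.21, CDK1 at 4.13, ACTA2 at 9.09, CHEK1 at 4.16, PDK1 at 5.13, the NK receptor ligands list at 4.95 and the Notch list at 4.49. DMSO_siNT library 4-3VM held BCL7B at 5.82, CXCL12 at 4.25, IGFBP4 at 11.09, TNC at 7.35, FN1 at 12.26, LCE1F at -1.75, MVK at 4.86 and the collagens list at 7.45.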

How the results depend on the processing

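The count of genes called ranged from 6772 to 7695 when 1 library was left out, the count changed over 2-fold from 1629 to 1773, the count within 1.5-fold from 4428 to 4875 and the count called alike in both siRNA contrasts from 3339 to 4171. The count over 2-fold was 1055 with at least 10 counts in every library. VM sets alone gave 4919 genes called and 3099 within 1.5-fold, and V sets alone 3031 within 1.5-fold. The count of genes that differed between the siRNA contrasts was 107 with DESeq2, 454 with all genes of at least 1 count, and 0 to 1024 when 1 library was left out. The mean distance from growing cells was 1.02 over all genes of at least 1 count, 1.07 over genes with a mean log2 CPM above 1, and 0.441 as a median absolute difference. List medians changed sign for the epidermal list (-1.29 with at least 10 counts in every library), the reference genes (-0.0258 with DMSO_siNT 4-2V added, -0.00859 with all 18 libraries in 1 fit, -0.0628 in VM sets and -0.0202 in VM sets with the unlabelled library, an alternative chosen after seeing the data), the RB and E2F list (-0.00663 in VM sets) and the G1 list (0.0103 in V sets). The CDK inhibitor median was -0.0199 without 4OHT_siSMARCA4 4-2VM. With DMSO_siNT 4-2V added, the cytosolic sensing and HLA class I medians were -0.138 and -0.141. The Polycomb median was below 0 in most alternatives, down to -0.261 with siSMARCA4_4 alone, and the prostaglandin median changed sign with upper quartile scaling (-0.0491) and without 4OHT_siSMARCA4 4-2VM (-0.0241), DMSO_siNT 2-1V (-0.0115) or DMSO_siNT 2-2V (-0.00604). The cause was not tested.

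Taking the set label for a replicate block, 5624 genes were called, 1501 over 2-fold and 3810 within 1.5-fold. Between libraries of the same set, the correlation of deviations was 0.197 for 2V, -0.051 for 2VM and 0.226 for 3VM. Over 26 pairs of libraries of different sets it ran from -0.329 to 0.279, with a median of -0.013. So few shared sets cannot decide whether set labels pair the libraries. Of 199 named genes, 147 were called. In 32 of them a call was lost in some alternative other than leaving out a library, and in 2, among them MVK, when 1 library was left out. Both V libraries of DMSO_siNT carried siRNA 2, so that set and siRNA overlap in those controls.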
